A study of Mus musculus with 9 samples.

Results

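The 10 genes described here are the tumour suppressor gene Trp53, its negative regulator Mdm2, the cyclin-dependent kinase (CDK) inhibitor genes Cdkn1a, Cdkn1b, Cdkn2a and Cdkn2b, and the p53 targets Bax, Bbc3, Ccng1 and Gadd45a. They were looked up by symbol among the 14108 genes counted in every tumour, and all 10 were found. Messenger RNA was sequenced from tumours of 3 mouse mammary cancer models, with 3 tumours a model. HR1 is a non-metastatic line from a mammary tumour of a mouse that expressed the activated PI3-kinase PIK3CA H1047R under the ubiquitous CAG promoter. LM1 and LM9 each derive from a lung metastasis that formed after HR1 cells had been equipped with piggyBac, a transposon that mutates genes by inserting into them, and each model is 1 line. All 3 models therefore share the PIK3CA allele, and whether the HR1 cells used here also carried transposon components is not given in the labels. For every tumour, 250000 cells in 50 µl of Matrigel:PBS went into the mammary fat pad of a female NOD/SCID mouse aged 4 to 8 weeks, the tumour was taken before it reached 1500 mm3, and GFP-positive cells were sorted. NOD/SCID mice lack mature T and B cells and keep myeloid cells. The labels number the tumours of a model but do not say whether they came from separate mice, so p-values measure the spread between these tumours only.

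p53, the product of Trp53, is a transcription factor that is held at low level by the ubiquitin ligase MDM2 and accumulates after DNA damage or oncogenic stress. It switches on genes that halt the cell cycle, repair DNA or kill the cell, and Mdm2 is itself such a target, which closes a feedback loop. The CDK inhibitors act downstream or in parallel. p21 (Cdkn1a) and p27 (Cdkn1b) bind cyclin-CDK complexes, whereas p16INK4A (Cdkn2a) and p15INK4B (Cdkn2b) bind CDK4 and CDK6 and so keep the retinoblastoma protein active. Cdkn2a has a second product, p19ARF, which inhibits MDM2, so this locus touches both pathways. p53 is regulated largely at the protein level, so the mRNA values below are levels of transcripts and not of p53 activity.

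The total counts ran from 32393958 to 46681945 a tumour. One library stood apart from the others of its model and went against its label. In HR1 replicate 1, Nfib, the transcription factor gene that the study centres on, was at 1343 CPM (counts scaled to library size), against 23.9 and 18.3 CPM in HR1 replicates 2 and 3, 579 to 791 CPM in LM1 and 421 to 583 CPM in LM9. On log2 CPM over all tested genes, the library labelled HR1 replicate 1 correlated with the other HR1 libraries at r = 0.891 and 0.878, against 0.961 between those 2 and 0.986 to 0.991 within LM1 and LM9. Summed fibroblast markers, 10 of 10 listed, were at 35302 CPM in it and at 22655 and 23196 CPM in the other HR1 tumours, 10433 to 13848 CPM in LM1 and 8974 to 10537 CPM in LM9. The excess of HR1 replicate 1 lay in Dcn, the decorin gene, at 17605 CPM against 432 and 329 CPM, and of the 10 genes 6 were above and 3 below both other HR1 tumours, Col1a2, Col3a1 and Acta2 being the ones below. Jointly in the metastatic lines, 9 of the 10 were lower and none higher by edgeR (median log2 fold change -1.88), where 43.6% of all tested genes were called in either direction. Without HR1 replicate 1, 7 of the 10 were lower (median -1.33, background 56.0%). In LM1 versus HR1, 5 of the 10 were lower (median -1.63, background 35.5%), and in LM9 versus HR1, 9 of the 10 (median -2.95, background 42.3%). Summed leukocyte markers, 10 of 10 listed, ranged from 179 to 679 CPM in HR1, 162 to 170 CPM in LM1 and 207 to 246 CPM in LM9. The larger sum in LM9 than in LM1 came from Cd68, a lysosomal gene of macrophages, at 107 to 138 CPM in LM9 and 15.9 to 17.9 CPM in LM1, and the median over the 10 for LM9 versus LM1 was -0.46. Against HR1, 6 of the 10 were lower jointly (median -1.54, background 43.6%), 5 in LM1 (median -1.34, background 35.5%) and 7 in LM9 (median -1.87, background 42.3%). Of the defining epithelial markers, Krt8 and Krt7 were not among the listed genes, Epcam and Cdh1 were under 1 CPM in every LM1 and LM9 tumour, and the 5 that were listed summed to 7.55 to 121 CPM in HR1, 156 to 180 CPM in LM1 and 13.6 to 16.3 CPM in LM9. Nearly all of that sum in LM1 and LM9 was Krt14, a keratin of basal cells, at 152 to 175 CPM in LM1, 12.2 to 15.4 CPM in LM9 and 1.56, 31.4 and 109 CPM in HR1. Endothelial markers, 6 of 8 listed, summed to 5.61 to 26.7 CPM in HR1, 163 to 226 CPM in LM1 and 252 to 290 CPM in LM9. The rise lay in Cdh5, at 136 to 254 CPM over LM1 and LM9, and in Kdr, at 22.3 to 37.3 CPM. The other 4, Pecam1, Emcn, Cldn5 and Vwf, were lower jointly, so that 2 of the 6 were higher and 4 lower, with a median of -1.92 (background 43.6%). In LM1 versus HR1, none of these 4 was called, and in LM9 versus HR1, 2 of the 4 were lower. Without HR1 replicate 1, 2 of the 4 were lower in LM1 and all 4 in LM9 (backgrounds 52.8% and 55.7%). The part of these marker differences in the results below was not tested, and fewer cells of a type cannot be told apart from less RNA per cell. The markers were read in GFP-sorted cells, so their sums do not show which cells made the RNA. Values are for all 9 tumours unless the 8 tumours that remain without HR1 replicate 1 are named. A gene is said to be higher or lower where edgeR's quasi-likelihood test, adjusted over all tested genes (Benjamini-Hochberg), gave an adjusted p under 0.05.

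The promoter windows in RefSeq (GRCm38.p6, 250 bases before to 50 bases after each start) were searched for the p53 response element. This is a pair of 10-base motifs with no spacer, searched on both strands, with the C and G at the core of each motif kept. The limit of 3 mismatches was set after the promoters had been seen. The 10 genes have 14 such windows. At most 1 mismatch was found in 2 of the 14, those of Cdkn1a and Ccng1, and at most 3 mismatches in 5 of the 14, in 5 different genes. Of the 32851 windows of all genes, 0.067% and 1.38% held such matches, and since the limit followed the search these shares are a description only. The elements are shown so that the genes with such letters beside their start can be read against the levels that follow. Capitals mark the bases that match the consensus.
Cdkn1a (chr17:29090928-29090947, + strand, 1 mismatch): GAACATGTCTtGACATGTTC
Ccng1 (chr11:40755462-40755481, - strand, 1 mismatch): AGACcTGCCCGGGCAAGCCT
Bbc3 (chr7:16309486-16309505, + strand, 3 mismatches): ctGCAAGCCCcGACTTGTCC
Trp53 (chr11:69580284-69580303, + strand, 3 mismatches): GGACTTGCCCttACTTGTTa
Cdkn1b (chr6:134920182-134920201, + strand, 3 mismatches): GGGCcAGCCaGAGCAgGTTT
A match describes these letters and does not show that p53 binds there. The Bbc3 match lies 97 bases before a RefSeq start that is inside the span of the gene given below. The windows of Mdm2, Cdkn2a, Cdkn2b, Bax and Gadd45a held no such match within this distance of the start. Sequence outside the windows, introns included, was not searched, so this does not show that these genes lack p53 elements.

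Of the 10 genes, 4 differed between the 6 metastatic-line tumours together and the 3 HR1 tumours. Mdm2, Bbc3 and Gadd45a were higher and Ccng1 was lower. That is 40% of the genes, and 43.6% of all 14086 tested genes differed in this comparison, so the share was near the background. In LM1 versus HR1, 2 of the 10 differed, Trp53 and Mdm2, both higher (background 35.5%). In LM9 versus HR1, 4 of 10 differed, Mdm2, Bbc3 and Gadd45a higher and Ccng1 lower (background 42.3%). Between LM9 and LM1, 4 of 10 differed, Mdm2, Cdkn1b and Bbc3 higher and Trp53 lower in LM9 (background 22.0%). The first 3 comparisons share the HR1 tumours, so their values stand side by side and are not independent. Over the 8 tumours the counts were 6 of 10 (background 56.0%), 5 of 10 (52.8%), 7 of 10 (55.7%) and 7 of 10 (45.5%), in the same order.

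**Figure D1:**
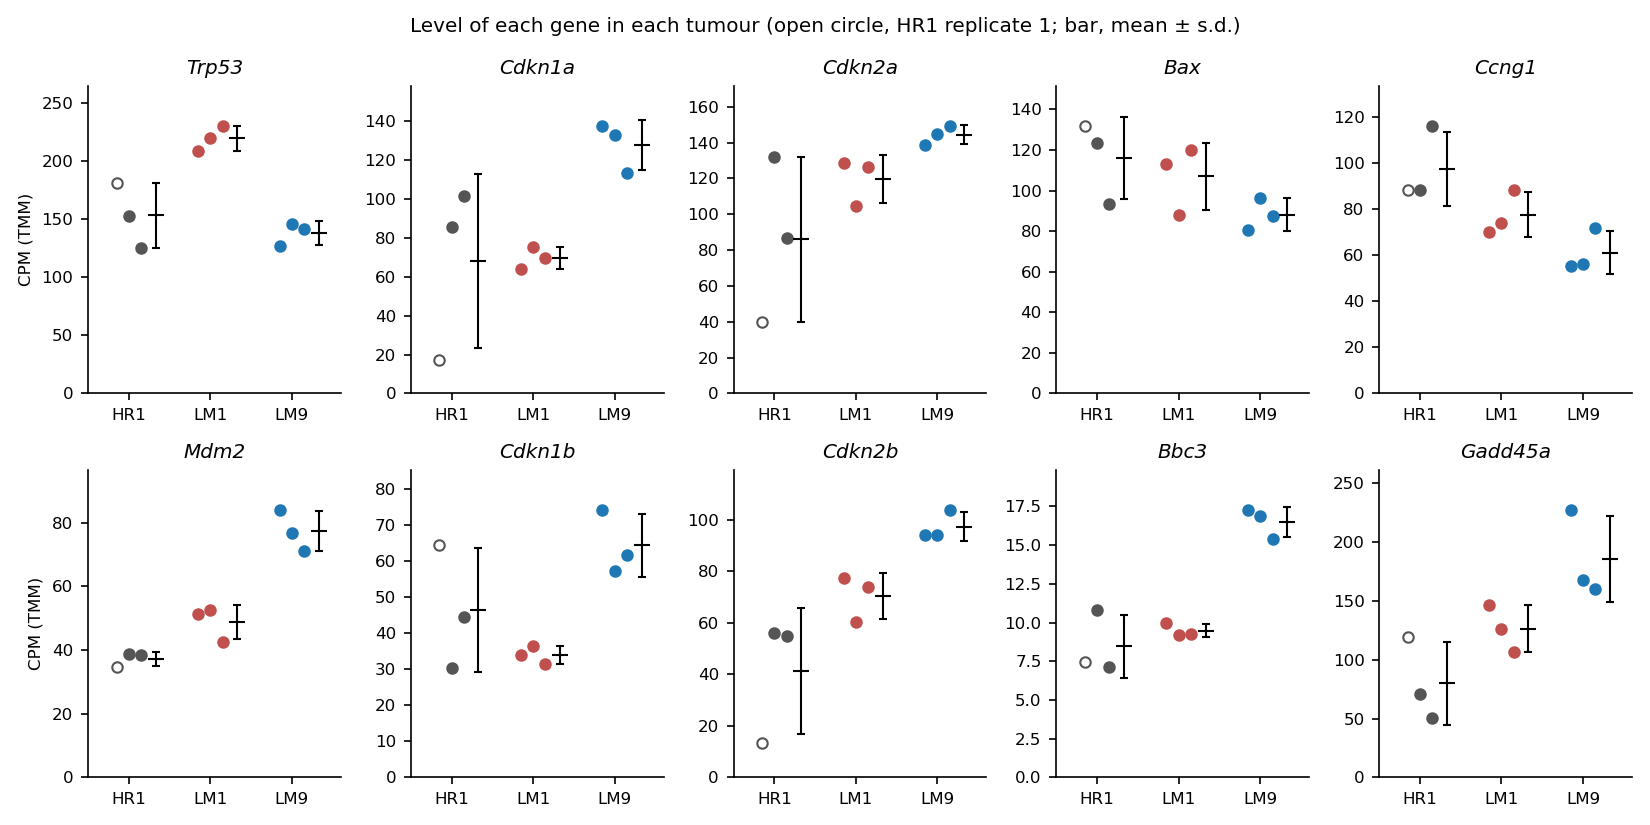
CPM after TMM scaling (y axis, from 0) of each of the 10 genes in the 3 HR1, 3 LM1 and 3 LM9 tumours; each circle is 1 tumour, the open circle is HR1 replicate 1, and the bar gives the mean ± s.d. of the 3 tumours. The open circle lies lowest of all 9 tumours for Mdm2, Cdkn1a, Cdkn2a and Cdkn2b, and the LM9 tumours lie above all LM1 tumours for Mdm2, Cdkn1a, Cdkn1b, Cdkn2a, Cdkn2b, Bbc3 and Gadd45a.

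Trp53 (chr11:69580359-69591873) was highest in LM1. Its level was 181, 153 and 125 CPM in HR1 replicates 1 to 3, 209, 220 and 230 CPM in LM1, and 127, 146 and 141 CPM in LM9. The LM1 tumours lay above all others, and the LM9 range overlapped that of HR1. The mean was 153 ± 28.0 CPM (SD, n = 3) in HR1, 220 ± 10.8 CPM in LM1 and 138 ± 10.2 CPM in LM9. Trp53 was 1.43-fold higher in LM1 than in HR1 (log2 fold change 0.52, SE 0.15, adjusted p = 0.0278), and the exact two-sided permutation test on CPM gave p = 0.1, the smallest that 3 against 3 tumours allow. It was lower in LM9 than in LM1 (log2 fold change -0.67, SE 0.15, adjusted p = 0.0171). LM9 and HR1 differed by -0.15 (95% interval -0.50 to 0.20, adjusted p = 0.451). Leaving out HR1 replicate 1 raised the LM1 versus HR1 value to 0.67 (adjusted p = 0.00191), while the call was lost without any 1 of HR1 replicates 2 or 3, LM1 replicates 1, 2 or 3 or LM9 replicate 3 (adjusted p from 0.0502 to 0.0803, log2 fold change from 0.39 to 0.56). It was also lost in an edgeR fit of only the HR1 and LM1 tumours (0.51, adjusted p = 0.0886). For LM9 versus LM1 the call was lost without LM1 replicate 1 or 3 or LM9 replicate 1 or 3 (adjusted p from 0.056 to 0.0794).

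Mdm2 (chr10:117688875-117710758), which encodes the ligase that marks p53 for degradation, was the one gene of the 10 that differed in all 4 comparisons over 9 tumours. Over 8 tumours Mdm2, Cdkn2b and Gadd45a all did. It was at 34.6, 38.6 and 38.3 CPM in HR1, 51.2, 52.5 and 42.6 CPM in LM1, and 84, 76.9 and 71.2 CPM in LM9. The 3 models did not overlap, in the order HR1, LM1, LM9, and the HR1 tumours lay close together, with replicate 1 included. Mdm2 was 1.65-fold higher in the metastatic lines together than in HR1 (0.72, SE 0.12, adjusted p = 0.00162; exact two-sided permutation p = 0.0238, the smallest that 6 against 3 allow). The difference was 2.08-fold in LM9 (1.06, SE 0.13, adjusted p = 0.000637) and 1.31-fold in LM1 (0.39, SE 0.13, adjusted p = 0.0465), and LM9 exceeded LM1 by 0.66 (SE 0.13, adjusted p = 0.0103). Both the joint and the LM9 versus HR1 calls held whichever tumour was left out, with adjusted p at most 0.00675 and 0.00495. The LM1 versus HR1 call was weak: it remained without HR1 replicate 1 (0.35, adjusted p = 0.0497) and without LM1 replicate 3 and was lost without any of the other 7 tumours (adjusted p from 0.0628 to 0.15). It was also lost in an edgeR fit of only the HR1 and LM1 tumours (0.38, adjusted p = 0.138). LM9 versus LM1 lost its call without LM9 replicate 1 alone (0.60, adjusted p = 0.0524). Trp53 and Mdm2 thus ran in different orders over the models, with LM1 highest for Trp53 and LM9 highest for Mdm2.

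Cdkn1a (chr17:29090976-29100727), the gene of p21 and the best known arrest target of p53, depended on 1 library. It was at 17.3 CPM in HR1 replicate 1 and at 85.6 and 101 CPM in HR1 replicates 2 and 3, at 63.8, 75.3 and 69.6 CPM in LM1, and at 137, 133 and 113 CPM in LM9. The mean of HR1 replicates 2 and 3 was 5.40 times the level in replicate 1. Every LM9 tumour lay above every tumour of the other models. None of the comparisons called Cdkn1a with 9 tumours: LM9 versus HR1 gave 0.91 (95% interval -0.24 to 2.05, adjusted p = 0.175) and LM1 versus HR1 gave 0.03 (95% interval -1.11 to 1.17, adjusted p = 0.968). Leaving out HR1 replicate 1 turned the LM1 value to -0.42 (SE 0.14, adjusted p = 0.0269), set LM9 at 0.46 above HR1 (SE 0.14, adjusted p = 0.0192), and took the SE of LM9 versus LM1 from 0.50 to 0.12 around nearly the same value, 0.88 and 0.87 (adjusted p = 0.237 and 0.000533). A fit of the 6 LM1 and LM9 tumours by themselves gave 0.87 for LM9 versus LM1 (adjusted p = 6.8e-05). Its exonic sequence shares 8.49% of all 50-base windows with other genes, and a further gene model overlaps 7.7% of its exons on the opposite strand.

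Cdkn1b (chr6:134920401-134925513) encodes p27, a CDK inhibitor that holds cells in quiescence. It was at 64.3, 30.2 and 44.3 CPM in HR1, 33.9, 36.4 and 31.4 CPM in LM1, and 74.1, 57.2 and 61.5 CPM in LM9. The LM9 tumours lay above the LM1 tumours, and HR1 spanned the gap between them. LM9 was 1.89-fold above LM1 (0.92, SE 0.25, adjusted p = 0.0313). That call was lost without any one of the 6 LM1 and LM9 tumours (log2 fold change from 0.81 to 0.98, adjusted p from 0.067 to 0.118) and stayed without each HR1 tumour. For the metastatic lines together the test was not passed (0.01, 95% interval -0.48 to 0.50, adjusted p = 0.97). Over 8 tumours, Cdkn1b was also higher in LM9 than in HR1 (0.79, SE 0.18, adjusted p = 0.00528), where 9 tumours gave 0.47 (adjusted p = 0.154), and replicate 1 held the highest HR1 level. Without HR1 replicate 2, its lowest HR1 tumour, Cdkn1b was lower in LM1 than in HR1 (-0.68, adjusted p = 0.0307).

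Cdkn2a (chr4:89274471-89294653) and Cdkn2b (chr4:89306299-89311039) lie side by side and both were lowest in HR1 replicate 1. Cdkn2a was at 39.7, 132 and 86.7 CPM in HR1, 129, 104 and 126 CPM in LM1, and 139, 145 and 149 CPM in LM9. The LM9 tumours lay above all others, and the HR1 tumours spread over more than the LM1 range. Cdkn2a was called in none of the 4 comparisons by edgeR, DESeq2 or limma-voom (LM9 versus HR1 0.75, 95% interval -0.05 to 1.54, adjusted p = 0.116 with edgeR), nor over 8 tumours (0.40, adjusted p = 0.0744). It was called when HR1 replicate 2, the highest HR1 tumour, was left out, at 1.06 jointly (adjusted p = 0.0197), 0.92 in LM1 (adjusted p = 0.047) and 1.19 in LM9 (adjusted p = 0.0177). Its counts pool the transcripts of p16INK4A and p19ARF, which cannot be told apart at gene level.

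Cdkn2b was at 13.2, 55.9 and 54.9 CPM in HR1, 77.3, 60.5 and 74.0 CPM in LM1, and 94.3, 93.9 and 104 CPM in LM9. The 3 models did not overlap, and the joint comparison gave the smallest exact permutation p that it allows, 0.0238. The joint difference was 2-fold (1.00, SE 0.40) with an adjusted p of 0.0689, and LM9 versus HR1 gave 1.23 (SE 0.44, adjusted p = 0.051), both short of the threshold by edgeR. Without the robust option of its fit, edgeR put LM9 versus HR1 just past it (adjusted p = 0.0495) and the joint difference short of it (adjusted p = 0.067). limma-voom put both past the threshold (adjusted p = 0.0347 and 0.0296), as did DESeq2 (adjusted p = 0.0241 and 0.0163). On simulated counts, DESeq2 made more false calls than edgeR and limma-voom. It also recovered more of the 2-fold changes set there, 49% against 28.6% for edgeR and 20.4% for limma-voom. No simulated tumour was made to stand apart as HR1 replicate 1 did. Over 8 tumours the values were smaller and their errors smaller still, and Cdkn2b was higher in all 4 comparisons: 0.59 jointly (SE 0.12, adjusted p = 0.00269), 0.36 in LM1 (adjusted p = 0.0454), 0.82 in LM9 (adjusted p = 0.000773) and 0.46 in LM9 versus LM1 (adjusted p = 0.011). Leaving out HR1 replicate 2 or 3 in its place also put LM9 versus HR1 past the threshold, at 1.51 and 1.49 (adjusted p = 0.0465 and 0.0456). The joint log2 value with HR1 replicate 1 was thus over 1.5 times that without it, and was short of the threshold.

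**Figure D2:**
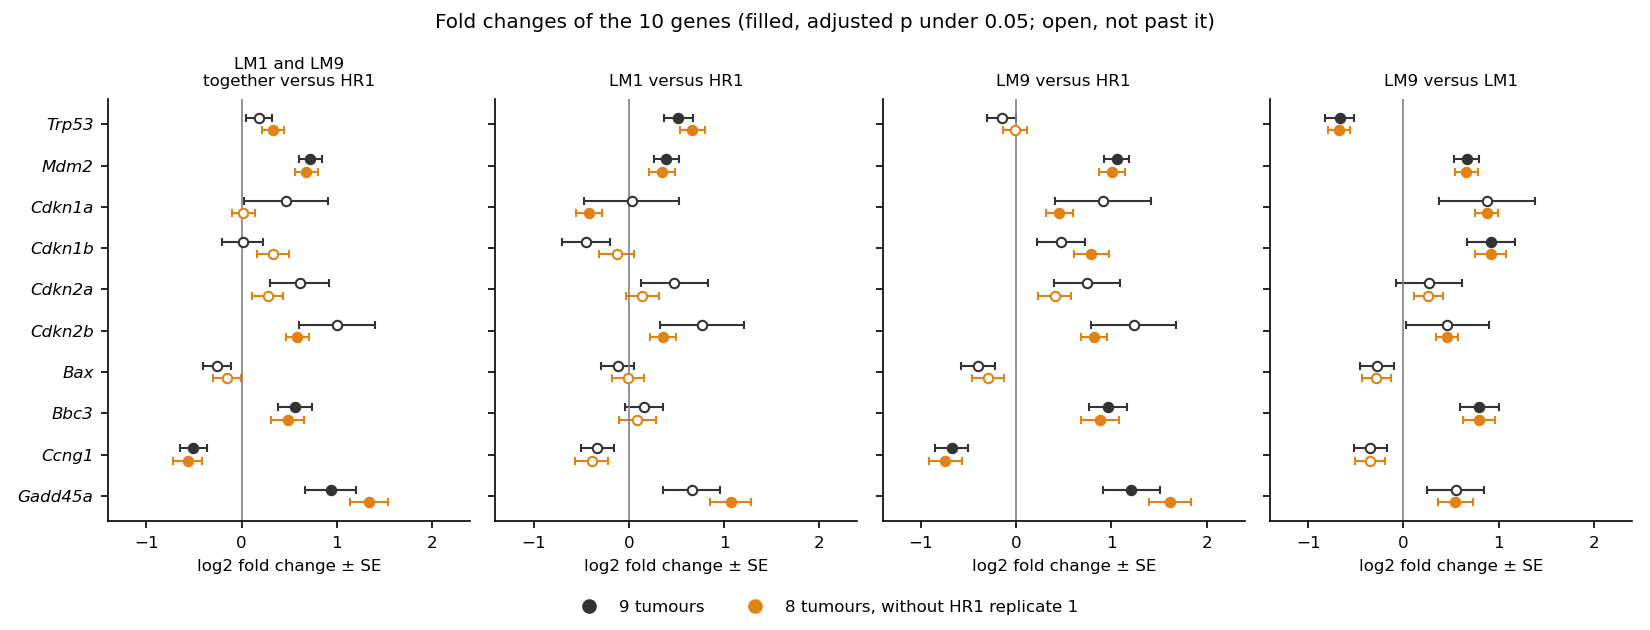
Log2 fold change ± SE (x axis) of each of the 10 genes in 4 comparisons, fitted by edgeR over 9 tumours (black) and over 8 tumours without HR1 replicate 1 (orange); filled symbols passed an adjusted p of 0.05. The error bars of Cdkn1a and Cdkn2b shrink in the 8-tumour fit, and Mdm2 is past the threshold in both fits and all 4 comparisons.

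The neighbourhood of Cdkn2a was read for the genes within 5 Mb. Besides Cdkn2a and Cdkn2b, 15 listed genes there had a mean of at least 1 CPM. In HR1 replicate 1, 8 of the 15 were below both other HR1 tumours and 4 were above both, against 41.6% and 40.8% of all 12377 genes at this level. The nearest listed gene on one side, Mtap, which encodes an enzyme of methionine salvage, stands 0.14 Mb away and was at 94.4 CPM in replicate 1 against 235 and 213 CPM. On the other side the nearest at this level was Elavl2, a gene of an RNA-binding protein of neurons, 1.98 Mb away, at 1.31 ± 0.224 CPM in LM1 and 4.36 ± 0.881 CPM in LM9 (SD, n = 3). Mtap was higher in the metastatic lines together than in HR1 (1.08, SE 0.27, adjusted p = 0.0124), and over 8 tumours it was higher by 0.77 (adjusted p = 0.00087).

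Of the 15 neighbours, 5 were higher and none lower in LM9 than in LM1 by edgeR (background 22.0%), and over 8 tumours 7 were higher and 2 lower (background 45.5%). The 5 lie in a run from Mllt3, about 1.5 Mb from Cdkn2a, to Klhl9 at 0.56 Mb, and are described because they were the ones called. Mllt3, a chromatin reader gene, was at 104 ± 14.4 CPM in LM9, 22.1 ± 4.80 CPM in LM1 and 32.8 ± 2.43 CPM in HR1, and LM9 exceeded LM1 by 2.23 (SE 0.19, adjusted p = 0.000491). Focad, which encodes a focal adhesion protein, was at 112 ± 8.28, 42.6 ± 5.69 and 50.2 ± 8.14 CPM in the same order (1.40, SE 0.16, adjusted p = 0.00136). The interferon gene Ifnb1, between them and Cdkn2a, was at 14.7 ± 7.17 CPM in LM9, 1.93 ± 0.402 CPM in LM1 and 0.172 ± 0.102 CPM in HR1 (LM9 versus LM1 2.93, SE 0.50, adjusted p = 0.00566). Hacd4 and Klhl9 exceeded their LM1 levels in LM9 by 1.46 and 1.03 (adjusted p = 0.00326 and 0.0375). These 5 differences are larger than that of Cdkn2a in the same comparison, 0.27 (SE 0.35, adjusted p = 0.61), and that of Mtap, 0.28 (SE 0.30, adjusted p = 0.527), and the differences between genes were not tested.

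**Figure D3:**
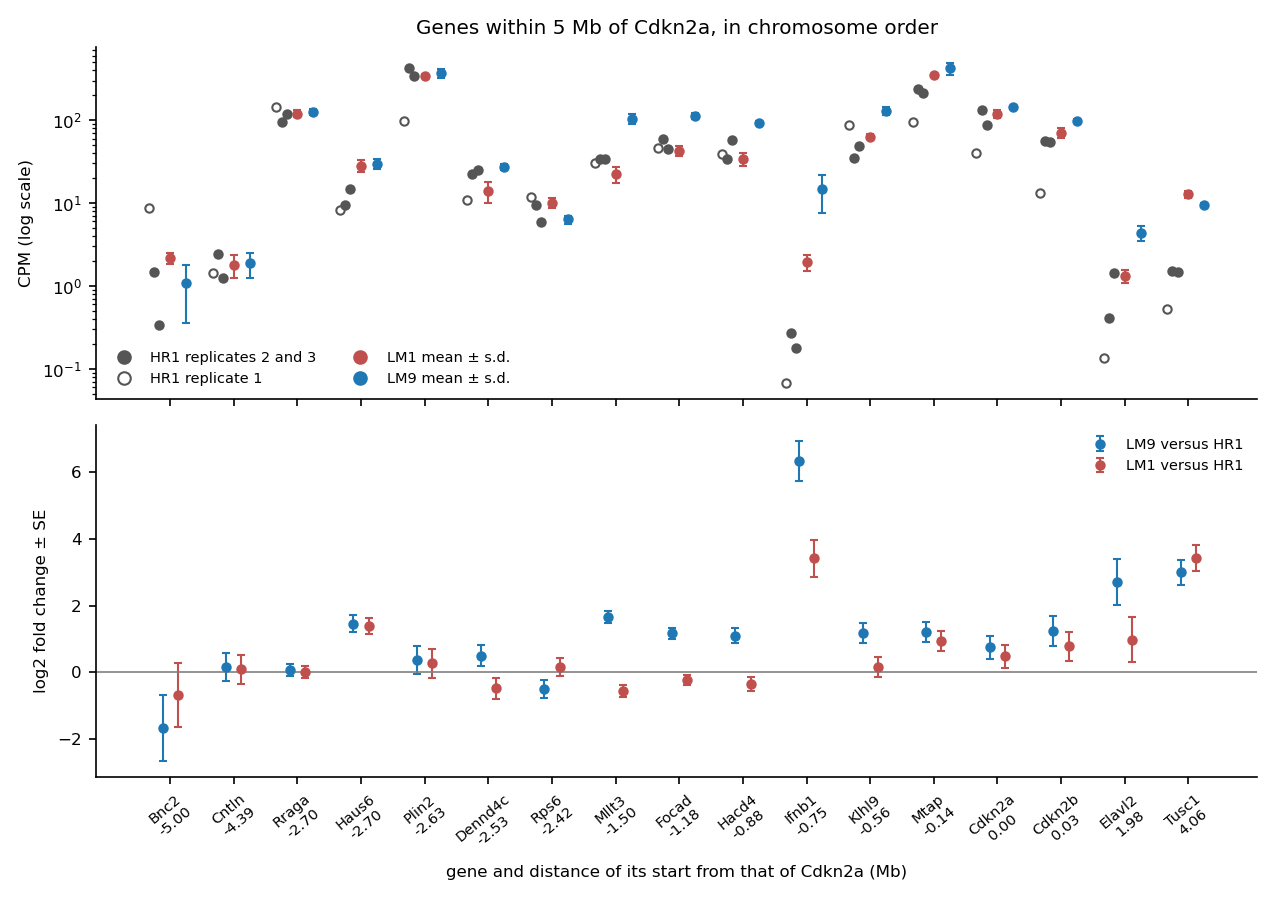
Genes within 5 Mb of Cdkn2a with a mean of at least 1 CPM, in chromosome order, with the distance of their start from that of Cdkn2a in Mb. Upper panel, CPM on a log axis, with each HR1 tumour as a point and LM1 and LM9 as mean ± s.d.; lower panel, log2 fold change ± SE against HR1. Dennd4c, Mllt3, Focad and Hacd4 lie above 0 in LM9 and below 0 in LM1.

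Bax (chr7:45461697-45466898), the pore-forming BCL2-family protein that permeabilises mitochondria, passed the threshold in none of the 4 comparisons by edgeR, DESeq2 or limma-voom. It was at 132, 123 and 93.1 CPM in HR1, 113, 88.1 and 120 CPM in LM1, and 80.5, 96.5 and 87.3 CPM in LM9. The groups overlapped in each comparison. The joint difference was -0.26 (95% interval -0.60 to 0.08, adjusted p = 0.195), and LM9 versus HR1 gave -0.40 (95% interval -0.80 to 0.0018, adjusted p = 0.0984). Without HR1 replicate 3, its lowest HR1 tumour, that value was -0.53 (adjusted p = 0.0312), past the threshold. Over 8 tumours the joint value was -0.15 (adjusted p = 0.414) and that of LM9 -0.29 (adjusted p = 0.164). Another gene model shares 12.2% of its exonic bases on the same strand.

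Bbc3 (chr7:16308393-16318205) encodes PUMA, a BH3-only protein that sets off apoptosis, and had the lowest level of the 10. It was at 7.45, 10.8 and 7.15 CPM in HR1, 9.98, 9.22 and 9.25 CPM in LM1, and 17.3, 16.8 and 15.4 CPM in LM9. The LM9 tumours stood clear of the other 6, whereas LM1 and HR1 overlapped. Bbc3 was 1.95-fold higher in LM9 than in HR1 (0.96, SE 0.20, adjusted p = 0.00599), a call that held whichever tumour was left out (adjusted p at most 0.0289). LM9 also exceeded LM1, by 0.80 (SE 0.20, adjusted p = 0.0237), which was lost without any 1 of the 6 tumours compared (log2 fold change from 0.75 to 0.85, adjusted p from 0.0646 to 0.0924). LM1 and HR1 differed by 0.16 (95% interval -0.29 to 0.62, adjusted p = 0.556). The joint call (0.56, SE 0.18, adjusted p = 0.031) was lost without HR1 replicate 3 or any of the 6 LM tumours (adjusted p from 0.0503 to 0.0805). Over 8 tumours the values were 0.48 jointly (SE 0.18, adjusted p = 0.0402), 0.88 in LM9 (adjusted p = 0.00412) and 0.79 in LM9 versus LM1 (adjusted p = 0.0048).

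Ccng1 (chr11:40748552-40755311), whose product cyclin G1 takes part in the feedback on p53 through MDM2, was lower in LM9 than in HR1. It was at 88.3, 88.5 and 116 CPM in HR1, 70.1, 74.2 and 88.6 CPM in LM1, and 55.4, 56.1 and 71.8 CPM in LM9. The LM9 range lay below that of HR1, and LM1 overlapped both. The LM9 versus HR1 difference was called (log2 fold change -0.68, SE 0.17, adjusted p = 0.014), and in the metastatic lines together (-0.50, SE 0.15, adjusted p = 0.0222). Over 8 tumours the values were -0.74 (adjusted p = 0.00492) and -0.57 (adjusted p = 0.0097). The LM9 call was lost without LM9 replicate 1 or 2 (adjusted p = 0.0607 and 0.0525), and the joint call without HR1 replicate 3, where the value was -0.36 (adjusted p = 0.0806), or without LM1 replicate 1, LM9 replicate 1 or LM9 replicate 2 (adjusted p from 0.0521 to 0.0552).

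Gadd45a (chr6:67035096-67037457), a stress gene with a part in growth arrest and DNA repair, was higher in LM9. It was at 119, 70.4 and 50.7 CPM in HR1, 147, 126 and 106 CPM in LM1, and 227, 168 and 160 CPM in LM9. HR1 replicate 1 lay within the LM1 range, and HR1 replicates 2 and 3 lay below every LM tumour. The joint difference was 1.91-fold (0.94, SE 0.27, adjusted p = 0.0212; exact two-sided permutation p = 0.0476) and LM9 versus HR1 was 2.32-fold (1.21, SE 0.30, adjusted p = 0.0126). Over 8 tumours it was called in all 4 comparisons, at 1.34 jointly (SE 0.20, adjusted p = 0.00038), 1.07 in LM1 (adjusted p = 0.00229), 1.62 in LM9 (adjusted p = 0.000228) and 0.55 in LM9 versus LM1 (adjusted p = 0.0349). With 9 tumours LM1 versus HR1 gave 0.66 (95% interval -0.02 to 1.34, adjusted p = 0.114), so leaving out HR1 replicate 1 moved that value by over 1.5 times. The joint call was lost without HR1 replicate 2 or 3 (0.85 and 0.69, adjusted p = 0.0699 and 0.0517), and that of LM9 versus HR1 without LM9 replicate 1 (1.04, adjusted p = 0.0514). The gene E230016M11Rik overlaps 19.1% of its exonic bases on the opposite strand and was itself at 0.659 ± 0.162, 1.13 ± 0.115 and 0.564 ± 0.0595 CPM in HR1, LM1 and LM9 (SD, n = 3).

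Levels of different genes can be compared only per length, so CPM were divided by the kilobases of exon of each gene (RPKM). Cdkn2a was the most abundant of the 10 in LM1, at 102 ± 11.4 RPKM (SD, n = 3). In LM9 it had the highest mean, 123 ± 4.53 RPKM, but its range overlapped that of Gadd45a, at 105 ± 20.7 RPKM, and these 2 could not be ordered. In HR1, Bax at 73.6 ± 12.9 RPKM and Cdkn2a at 73.4 ± 39.3 RPKM could not be ordered. Bbc3 had the lowest mean in all 3 models, at 3.98 ± 0.949, 4.46 ± 0.202 and 7.77 ± 0.462 RPKM. In HR1 the ranges of all neighbours in the order overlapped except Mdm2 and Bbc3. The HR1 range of Cdkn1a, which is not next to Bbc3 in the order, went down to 4.87 RPKM and overlapped that of Bbc3, up to 5.08 RPKM. In LM1 the ranges parted between Cdkn2a and Gadd45a, between Cdkn2b and Ccng1, and from Cdkn1a downwards (Cdkn1a, Mdm2, Cdkn1b, Bbc3). In LM9, Cdkn2a and Gadd45a both lay above Cdkn2b (70.0 ± 4.01 RPKM), which lay above Bax (55.9 ± 5.09 RPKM), and Cdkn1a (36.0 ± 3.61 RPKM) overlapped Trp53 (34.1 ± 2.51 RPKM).

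**Figure D4:**
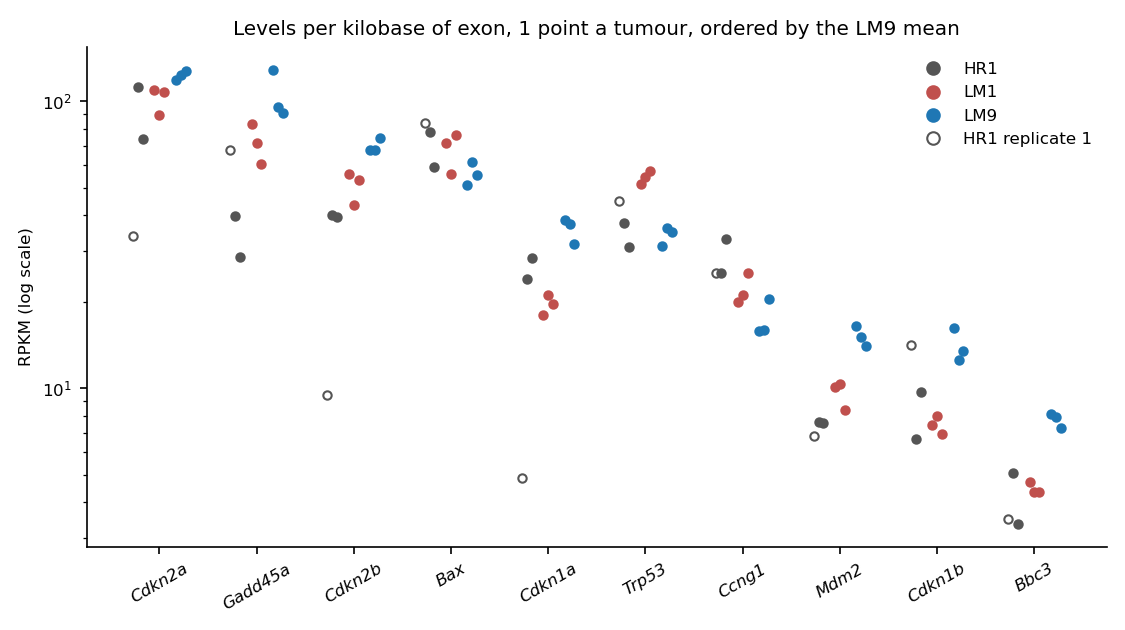
Level per kilobase of exon (RPKM, log axis) of the 10 genes, 1 point a tumour, ordered by the LM9 mean; the open circle is HR1 replicate 1. Cdkn2a heads the order in LM1 and has the highest mean in LM9, where it overlaps Gadd45a, and Bbc3 has the lowest mean in each model.

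Between the 2 metastatic lines, 8 of the 10 genes had LM1 and LM9 ranges that did not overlap, which 63.0% of all tested genes also had. Of the 8, only Trp53 was lower in LM9, and Mdm2, Cdkn1a, Cdkn1b, Cdkn2a, Cdkn2b, Bbc3 and Gadd45a lay higher. The 9-tumour fit called 4 of 10 against a background of 22.0%, and it uses a spread shared with HR1. A fit of only the 6 LM1 and LM9 tumours called 8 of 10, namely Trp53, Mdm2, Cdkn1a, Cdkn1b, Cdkn2b, Bbc3, Ccng1 and Gadd45a, against a background of 56.3%. The median log2 fold change of the 10 was 0.51, beside 0.00 over all tested genes.

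The share of all tested genes called in the joint comparison, higher or lower, was 43.6% over 9 tumours and 56.0% over 8, which is the background for the counts of the gene lists. Of 11 regulators of p53, 5 were higher and 1 lower in the metastatic lines together, with a median of 0.41 beside -0.05 over all tested genes, and over 8 tumours 4 were higher and 2 lower, so that 6 of 11 were called in either fit. Against HR1, 2 were higher and 1 lower in LM1 (median 0.10, background 35.5%) and 5 were higher and 1 lower in LM9 (median 0.22, background 42.3%). Atm, the kinase that signals double-strand breaks to p53, was higher by 1.03 (SE 0.18, adjusted p = 0.00237), and Hipk2, a kinase that phosphorylates p53, by 1.07 (SE 0.28, adjusted p = 0.0157). Cop1, a ligase that, like MDM2, targets p53, was lower (-0.82, SE 0.13, adjusted p = 0.00139) and was at 26.0 CPM in HR1, 17.0 CPM in LM1 and 12.8 CPM in LM9. Chek1, the replication checkpoint kinase, was higher in LM1 (1.12, SE 0.17, adjusted p = 0.00165) and lower in LM9 than in LM1 (-0.97, SE 0.17, adjusted p = 0.00605). Mdm4, the partner of MDM2, was higher in LM9 than in HR1 (0.74, SE 0.20, adjusted p = 0.0194). Of the p53 family, Trp63, which encodes the basal epithelial factor p63, was lower in the joint comparison (-3.48, SE 0.26, adjusted p = 5.48e-05), from 11.1 CPM in HR1 to 1.41 CPM in LM1 and 0.693 CPM in LM9, and Trp73 was not among the listed genes.

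Among 19 further p53 targets of arrest, repair and stress, 8 were higher and 4 lower in the metastatic lines together, with a median of 0.48, and over 8 tumours 9 were higher and 5 lower, against the 43.6% and 56.0% of all tested genes called. The single lines gave different counts, whose difference was not tested: LM1 versus HR1 gave 4 higher, 4 lower and a median of -0.06, and LM9 versus HR1 gave 8 higher, 3 lower and a median of 0.49 (backgrounds 35.5% and 42.3%). Ddit4, an inhibitor of the growth kinase mTORC1, was higher by 2.34 (SE 0.35, adjusted p = 0.00117), and Gtse1, a mitotic protein that restrains p53, by 2.22 (SE 0.21, adjusted p = 0.000152). Phlda3, an inhibitor of AKT, was lower in LM9 than in HR1 (-2.21, SE 0.18, adjusted p = 8.9e-05) and than in LM1 (-2.02, SE 0.18, adjusted p = 0.000491), at 31.9 CPM in LM9 against 130 CPM in LM1 and 148 CPM in HR1. Zmat3, an RNA-binding p53 target, was lower jointly (-0.93, SE 0.16, adjusted p = 0.00192). Trp53inp1, a cofactor of p53 in stress, was lower in LM1 than in HR1 (-2.45, SE 0.26, adjusted p = 0.000349) and higher in LM9 than in LM1 (1.84, SE 0.25, adjusted p = 0.00256). Sesn1, a sensor of nutrient stress, was lower jointly with 9 tumours (-1.82, SE 0.47, adjusted p = 0.0132) and with 8 (-0.61, adjusted p = 0.00337), and HR1 replicate 1 stood at 130 CPM.

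Of 11 further p53 targets in cell death, 3 were higher and 2 lower in the joint comparison, with a median of 0.21, and over 8 tumours 3 were higher and 3 lower, against the same 43.6% and 56.0% of all tested genes. In LM1 versus HR1 3 were higher and none lower, and in LM9 versus HR1 4 were higher and 3 lower (backgrounds 35.5% and 42.3%). Over 8 tumours, LM1 had 3 higher and 2 lower and LM9 had 3 higher and 3 lower (backgrounds 52.8% and 55.7%). Tnfrsf10b, the mouse TRAIL receptor, was higher jointly over 9 tumours by 3.48 (SE 0.45, adjusted p = 0.000594), at 2.26 CPM in HR1, 23.4 CPM in LM1 and 27.2 CPM in LM9. Pmaip1, the gene of the BH3-only protein NOXA, was lower in LM9 than in HR1 (-4.89, SE 0.84, adjusted p = 0.00243) and than in LM1 (-3.52, SE 0.79, adjusted p = 0.0164), opposite in direction to Bbc3. Siva1, a small proapoptotic protein, was also lower in LM9 than in HR1 (-1.22, SE 0.16, adjusted p = 0.00075). Apaf1, the core of the apoptosome, was higher in LM9 than in LM1 (0.70, SE 0.14, adjusted p = 0.0107). Of the other BCL2 family, 10 were listed, of which 1 was higher and 3 lower jointly, and over 8 tumours 1 was higher and 4 lower, at or below those background shares, while LM1 had 0 higher and 3 lower and LM9 had 2 higher and 3 lower. Over 8 tumours, LM1 and LM9 each had 2 higher and 5 lower than HR1 (backgrounds 52.8% and 55.7%). Jointly over 9 tumours, Mcl1, which blocks apoptosis, was the higher one (0.59, SE 0.14, adjusted p = 0.0102), and the proapoptotic Bmf (-2.86, SE 0.36, adjusted p = 0.00054), Bik (-2.44, SE 0.68, adjusted p = 0.0193) and Bad (-0.87, SE 0.14, adjusted p = 0.00151) were the lower ones.

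Of 4 other CDK inhibitors, 2 were higher and 1 lower in the metastatic lines together (background 43.6%), and over 8 tumours 3 were higher (background 56.0%). Cdkn1c, the gene of p57, was the lower one (-2.15, SE 0.65, adjusted p = 0.0259), but over 8 tumours it gave -0.54 (adjusted p = 0.249), and its level in HR1 replicate 1 was 53.4 CPM. Cdkn3, a phosphatase of CDKs, was higher (1.28, SE 0.38, adjusted p = 0.0244). HR1 replicate 1 stood at 53.2 CPM against 14.2 and 22.6 CPM in the other HR1 tumours, and over 8 tumours Cdkn3 was higher by 1.99 (adjusted p = 6.29e-05). Of 14 genes of the cyclin D-RB axis, which the INK4 inhibitors oppose, 7 were higher and 2 lower, with a median of 0.52, and over 8 tumours 7 were higher and 3 lower, beside the same background shares, while LM1 had 6 higher and 1 lower and LM9 had 4 higher and 1 lower (backgrounds 35.5% and 42.3%). Ccnd1, cyclin D1, was higher (1.42, SE 0.13, adjusted p = 0.000111), at 368 CPM in HR1, 993 CPM in LM1 and 980 CPM in LM9, and Cdk4 was lower (-0.59, SE 0.13, adjusted p = 0.00717). Both other GADD45 genes were higher, Gadd45b by 1.34 (SE 0.36, adjusted p = 0.0157) and Gadd45g by 1.40 (SE 0.18, adjusted p = 0.000559). Of 10 proliferation genes, 8 were higher and none lower in the joint comparison by edgeR, with a median of 1.18, the same counts as over 8 tumours, where all tested genes were called in 43.6% and 56.0% of cases, and their summed level was 599 to 915 CPM in HR1, 1920 to 2005 CPM in LM1 and 1355 to 1504 CPM in LM9. In the single lines, 9 were higher in LM1 and 7 in LM9 than in HR1. Mki67 was higher by 2.52 (SE 0.37, adjusted p = 0.00108) and Top2a by 2.05 (SE 0.19, adjusted p = 0.000132). Over 8 tumours, every call given for a named gene of the p53 control, p53 target, BCL2 family, CDK inhibitor, cyclin D-RB, GADD45 and proliferation lists was kept in direction and past the threshold except that of Cdkn1c, and the values of Sesn1, Cdkn1c and Cdkn3 moved by over 1.5 times.

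**Figure D5:**
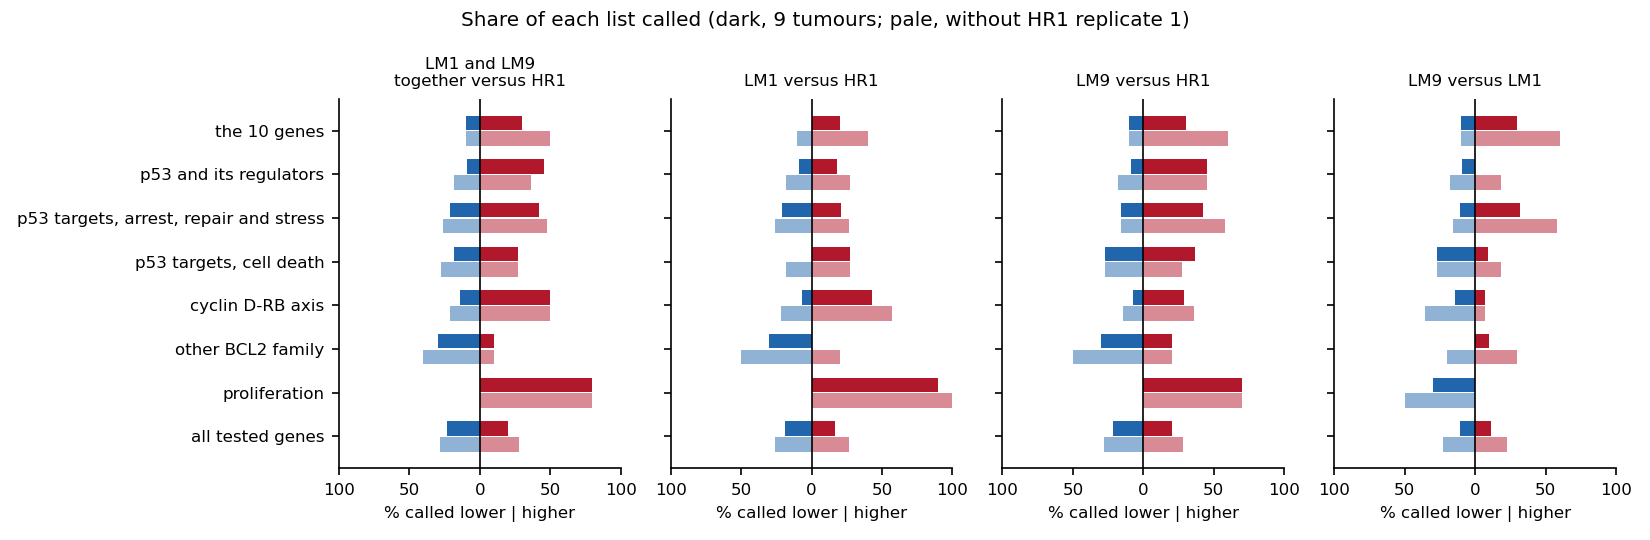
Share of each list of genes called higher (red, to the right) and lower (blue, to the left) by edgeR, in percent of the genes tested, in 4 comparisons, over 9 tumours (dark) and without HR1 replicate 1 (pale); the lowest row is all tested genes. The proliferation genes are called higher in 8 of 10 cases jointly, while the 10 genes described here are near the share of all tested genes in the joint comparison.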

How the data were processed

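The deposited files hold raw counts per gene, 1 file a tumour. Per the labels and the study's methods, the authors built TruSeq stranded mRNA libraries from GFP-sorted cells, sequenced single 50-nt reads, aligned them with STAR to mm10 and counted reads over the exons of each gene with QuasR. The strand setting and versions are not given in the sources used here. Of 14108 Entrez identifiers, 14085 matched a symbol. Counts were tested with edgeR 4.0.16 (TMM, filterByExpr, robust quasi-likelihood) in 1 model over the 3 groups, adjusted by Benjamini-Hochberg over 14086 genes. SE is the log2 fold change divided by the square root of F, and 95% intervals use the degrees of freedom of the quasi-likelihood test. CPM use TMM library sizes. Alternatives were RLE or library-size scaling, 2 other filters, DESeq2 1.42.0, limma-voom 3.58.1, other designs and leaving out each tumour. Lists were described by counts and medians, without a set test, and from each list the genes with the largest fold changes past the threshold and a mean of at least 1 CPM were eligible to be named. Exon lengths came from GENCODE on GRCm38. The script was tested on simulated counts. The members and lists were chosen with earlier results of these data known. Deviations of same-numbered tumours from their group means correlated at -0.117 to 0.162, so numbers do not pair tumours.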

Additional observations from a re-analysis of the deposited data

Results flagged for a closer look

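For 4 of the 10 genes the response in LM9 differed from that in LM1, both against the same HR1 tumours, by the direct edgeR test of LM9 versus LM1 (adjusted over all tested genes). That test called 22.0% of all tested genes, and a fit of only the LM1 and LM9 tumours called 56.3%. Trp53 differed by -0.67 on the log2 scale (adjusted p = 0.0171), with all 3 LM9 tumours below all 3 LM1 tumours. Mdm2 differed by 0.66 (adjusted p = 0.0103), Cdkn1b by 0.92 (adjusted p = 0.0313) and Bbc3 by 0.80 (adjusted p = 0.0237), each with all 3 LM9 tumours above all 3 LM1 tumours. Exact two-sided permutation gave p = 0.1 for each, the smallest that 3 against 3 tumours allow. The 4 differences kept their direction in all 9 fits that left out 1 tumour, and the tumours whose loss ended each call are named with the genes above. With 3 tumours a model, single tumours were not tested for standing apart.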

How the results depend on the processing

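RLE scaling, library size only and no filter on low counts changed none of the 40 calls and directions of the 10 genes. Without the robust option, edgeR changed 1 of them, Cdkn2b in LM9 versus HR1, which passed the threshold (adjusted p = 0.0495). In LM1 versus HR1, 2 genes became 1 with a filter of at least 1 CPM in 3 tumours, 1 with limma-voom and 0 with edgeR on only the tumours compared (1 at an unadjusted p under 0.05; DESeq2 on all tumours called 2). In LM9 versus LM1, 4 became 8 on only the tumours compared (backgrounds 22.0% and 56.3%). With the replicate block, which the pairing check did not call for, LM1 versus HR1 called 1 gene, Gadd45a (0.73, adjusted p = 0.026), in place of Trp53 and Mdm2 (adjusted p = 0.0578 and 0.079), and it changed no other call of these 10 genes. Leaving out 1 tumour gave 1 to 6 genes jointly, 0 to 5 in LM1 versus HR1, 2 to 7 in LM9 versus HR1 and 0 to 7 in LM9 versus LM1. The highest counts came without HR1 replicate 1, where 56.0%, 52.8%, 55.7% and 45.5% of all tested genes were called, in the same order. Over 9 tumours these shares were 43.6%, 35.5%, 42.3% and 22.0%. The shares in the other fits that left out 1 tumour are not given here, so their counts have no background beside them. By edgeR, 0 were called in LM1 versus HR1 without HR1 replicate 3, LM1 replicate 1, LM1 replicate 2 or LM9 replicate 3 (1 or 2 at an unadjusted p under 0.05), and 0 in LM9 versus LM1 without LM9 replicate 1 (4 unadjusted). The joint count was 1 without HR1 replicate 3 and 2 without LM1 replicate 1, LM9 replicate 1 or LM9 replicate 2. Cdkn1b in the joint comparison ran from -0.22 to 0.33 over these fits and was -0.0097 with the CPM filter, and Cdkn1a in LM1 versus HR1 ran from -0.42 to 0.43. The causes were not tested. With 3 tumours a model, absence of a call does not show equal levels, and the parts of counting and of spread between tumours in the errors were not separated.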
